A study of Homo sapiens with 12 samples.

Results

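Glucose is broken down to pyruvate by the glycolytic enzymes, and pyruvate is either reduced to lactate by lactate dehydrogenase or passed to the mitochondria through pyruvate dehydrogenase. Many genes of this route are targets of the hypoxia-inducible factors (HIFs), transcription factors whose alpha subunits are hydroxylated by oxygen-dependent prolyl hydroxylases, bound by the von Hippel-Lindau protein and degraded when oxygen is plentiful. In prostate cancer cells the balance between lactate production and mitochondrial oxidation of pyruvate has been studied alongside androgen signalling. The genes described here are 41 named genes of glycolysis and the hypoxia response, found by gene symbol among the 57992 Ensembl gene entries of the count table. They comprise 16 glycolytic enzymes, 3 glucose and lactate transporters, 4 regulators of glycolysis, 7 genes of the HIF system and 11 other hypoxia targets.

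The genes were measured by poly(A) RNA sequencing in 3 human prostate adenocarcinoma cell lines, with 3 biological replicates of each, in a study of enzalutamide resistance whose title names Notch signalling. Enzalutamide is an androgen receptor antagonist. MR49F is resistant to the drug per the labels and was derived from LNCaP under enzalutamide. C4-2 is a castration-resistant subline of LNCaP that is labelled sensitive, and LNCaP is the androgen-responsive parent, also labelled sensitive. Each condition is therefore represented by a single line, so a difference between conditions and a difference between lines cannot be told apart. Another resistant line, labelled C4-2R, was not analysed here. How the cultures were kept (oxygen, glucose, medium, any drug at harvest) is not given in the sources used here.

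Total gene counts were 8595344 to 9375912 in MR49F, 7140308 to 42770072 in C4-2 and 6990461 to 8989245 in LNCaP. C4-2 replicate 1 was the deepest, at 4.98 times the median of the other libraries. Levels are counts scaled to library size (CPM), on sizes adjusted by the trimmed mean of M values (TMM), and a gene was called changed at an edgeR adjusted p under 0.05 over all 15407 genes tested. Of the 41 genes, 39 had enough counts to be tested, and CA9 and ADM did not. The lines carried prostate luminal markers, with a summed level over 10 of 10 tested markers of 7507 to 7843 CPM in MR49F, 6905 to 8016 CPM in C4-2 and 5535 to 5737 CPM in LNCaP. Basal, endothelial and immune markers summed to under 5 CPM in every library, with KRT5, CDH5 and CD3E at 0 counts. Fibroblast markers summed to 7.59 to 9.25 CPM in MR49F, 21.7 to 27.0 CPM in C4-2 and 26.2 to 30.1 CPM in LNCaP, with COL1A2 at 0 counts. The part that these marker differences play in the results was not tested.

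The HIF dimer binds a core motif of 5 bases, searched here as ACGTG and GCGTG on both strands. The promoters of 4 genes are shown because LDHB, CA12 and SLC16A3 carried the widest differences between lines and LDHA is the partner isozyme of LDHB whose level was even across lines. Each runs 5′ to 3′ on the gene's strand, from 250 bases before to 50 after a RefSeq start (GRCh38.p14), with matches to the motif in capitals. A CACGTG counts once on each strand.
LDHB: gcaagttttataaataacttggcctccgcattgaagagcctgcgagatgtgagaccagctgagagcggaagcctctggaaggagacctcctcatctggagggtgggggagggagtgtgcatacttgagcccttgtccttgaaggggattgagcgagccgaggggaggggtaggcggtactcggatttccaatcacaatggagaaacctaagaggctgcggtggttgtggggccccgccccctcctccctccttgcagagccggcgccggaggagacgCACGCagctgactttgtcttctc
LDHA: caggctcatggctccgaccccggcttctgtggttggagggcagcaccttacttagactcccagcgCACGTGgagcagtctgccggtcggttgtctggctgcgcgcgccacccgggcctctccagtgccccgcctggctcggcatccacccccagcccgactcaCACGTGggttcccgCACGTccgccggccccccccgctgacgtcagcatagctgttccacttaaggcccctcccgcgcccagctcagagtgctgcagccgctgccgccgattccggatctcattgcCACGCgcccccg
CA12: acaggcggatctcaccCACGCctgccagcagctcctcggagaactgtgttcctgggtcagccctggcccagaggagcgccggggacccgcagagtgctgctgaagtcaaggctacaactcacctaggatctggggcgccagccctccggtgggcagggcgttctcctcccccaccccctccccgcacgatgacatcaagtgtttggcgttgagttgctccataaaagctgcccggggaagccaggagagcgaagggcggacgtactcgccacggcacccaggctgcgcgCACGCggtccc
SLC16A3: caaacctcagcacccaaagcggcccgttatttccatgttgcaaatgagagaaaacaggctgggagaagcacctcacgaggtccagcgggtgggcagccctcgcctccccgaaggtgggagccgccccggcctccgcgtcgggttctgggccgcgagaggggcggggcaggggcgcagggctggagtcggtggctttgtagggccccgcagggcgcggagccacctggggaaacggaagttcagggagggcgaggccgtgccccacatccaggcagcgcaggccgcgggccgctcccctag

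The LDHB window lies at chr12:21657793-21658092 on the minus strand and held 1 match, and the LDHA window at chr11:18394313-18394612 on the plus strand held 6. The CA12 window, chr15:63381797-63382096 on the minus strand, held 2 matches. The SLC16A3 window, chr17:82228185-82228484 on the plus strand, held 0. Among the 37 of the 41 genes with a RefSeq promoter in the table used, 27 held at least 1 match (73.0%), against 48.4% of 27305 promoters of all genes and 63.6% of the 10814 promoters of tested genes. A match is a string of letters in this window and says nothing of whether a factor bound there.

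The glycolytic enzymes were mostly within a narrow range across the lines, and LDHB was the exception. In MR49F against LNCaP, 2 of the 16 enzymes rose and 6 fell. Across all 39 tested genes of the 5 groups, 7 rose and 10 fell (43.6%), where 47.0% of all 15407 tested genes were called, 24.1% as higher and 22.8% as lower. The median log2 fold change of the 39 genes was -0.06, against 0.01 over all tested genes. In C4-2 against LNCaP, 2 enzymes rose and 3 fell (31.2%, under the 49.7% of all tested genes). Across the 39 genes 15 rose and 9 fell (61.5%), where 49.7% of all tested genes were called, 26.2% as higher and 23.5% as lower. Without C4-2 replicate 1 the enzymes counted 1 higher and 5 lower, and without any 1 of the LNCaP libraries 1 was higher. Both comparisons share the LNCaP libraries. In MR49F against C4-2, 4 enzymes were higher and 5 lower (56.2%, near the 61.0% of all tested genes). Across the 39 genes 11 were higher and 13 lower (61.5%), where 61.0% of all tested genes were called, 29.9% as higher and 31.1% as lower. The shares over the 39 genes in MR49F against LNCaP and in MR49F against C4-2 were thus near the background. The libraries of the compared lines did not overlap for 25 of the 39 genes in MR49F against LNCaP, where this held for 59.8% of all tested genes, for 26 in C4-2 against LNCaP (55.8%) and for 26 in MR49F against C4-2 (62.0%). Among the 16 enzymes this held for 13 in MR49F against LNCaP, 6 in C4-2 against LNCaP and 10 in MR49F against C4-2.

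**Figure D1:**
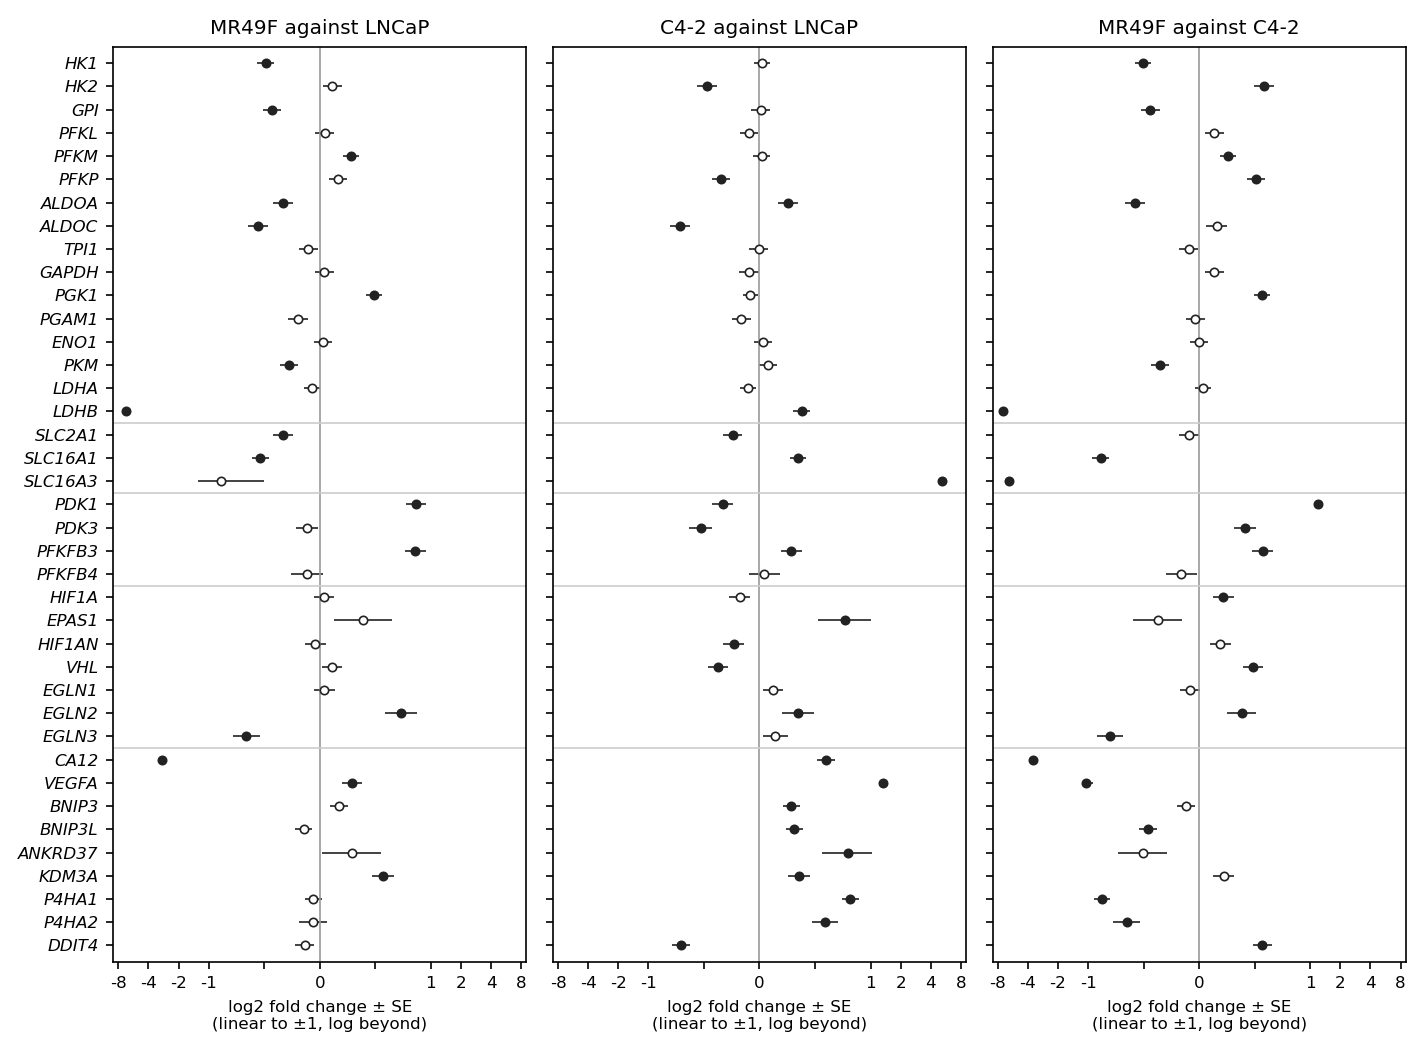
Fitted log2 fold changes of the 39 tested genes, grouped by role, in MR49F against LNCaP, C4-2 against LNCaP and MR49F against C4-2, on a symmetric log axis. Filled points passed an edgeR adjusted p under 0.05, and bars are 1 standard error. LDHB (-6.71 in MR49F against LNCaP) and SLC16A3 (5.21 in C4-2 against LNCaP) lie far from the other genes.

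LDHB encodes the B (heart-type) subunit of lactate dehydrogenase, which is usually described as favouring the oxidation of lactate to pyruvate. The gene (ENSG00000111716) spans chr12:21635342-21757857 on the minus strand in GENCODE 29, so the printed window lies inside the annotated span, at a start downstream of its outermost end. LDHB had 3.82, 4.74 and 3.57 CPM in the MR49F libraries, 588, 548 and 513 CPM in C4-2 and 418, 432 and 418 CPM in LNCaP. All 3 MR49F libraries lay far below every library of both other lines, and the C4-2 libraries lay above the LNCaP libraries with no overlap. The MR49F values rest on 35, 40 and 31 counts, so the transcript was detected at a low level. LDHB was 104.5-fold lower in MR49F than in LNCaP (log2 fold change -6.71, SE 0.116, adjusted p = 2.97e-20) and 136.1-fold lower in MR49F than in C4-2 (-7.09, SE 0.116, adjusted p = 7.69e-21). In C4-2 it was 1.30-fold higher than in LNCaP (log2 fold change 0.38, SE 0.0761, adjusted p = 3.15e-04). In bulk RNA, fewer cells that express a gene and less RNA per cell cannot be told apart. The 3 annotated LDHB pseudogenes summed to 0.0364 CPM in MR49F, 0.500 CPM in C4-2 and 0.371 CPM in LNCaP.

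LDHA, which encodes the A (muscle-type) subunit that is usually described as favouring the reduction of pyruvate to lactate, was even across the lines. It had 735, 712 and 707 CPM in MR49F, 735, 693 and 674 CPM in C4-2 and 746, 766 and 747 CPM in LNCaP. Its log2 fold change was -0.07 in MR49F against LNCaP (adjusted p = 0.442), -0.10 in C4-2 against LNCaP (adjusted p = 0.234) and 0.03 in MR49F against C4-2 (adjusted p = 0.701). Both LDHA contrasts with LNCaP have the LNCaP libraries on top without overlap, by amounts that did not pass the test. On a per-length scale (CPM per kb of the exon union), LDHB made up 1.16% ± 0.181 of the LDHA and LDHB total in MR49F, 62.0% ± 0.613 in C4-2 and 53.9% ± 0.0741 in LNCaP (SD, n = 3 each). The size of this share depends on the length used: with the longest transcript of each gene it was 0.877% in MR49F, 55.2% in C4-2 and 46.9% in LNCaP, so which of the 2 subunits was higher in LNCaP turns with that choice.

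**Figure D2:**
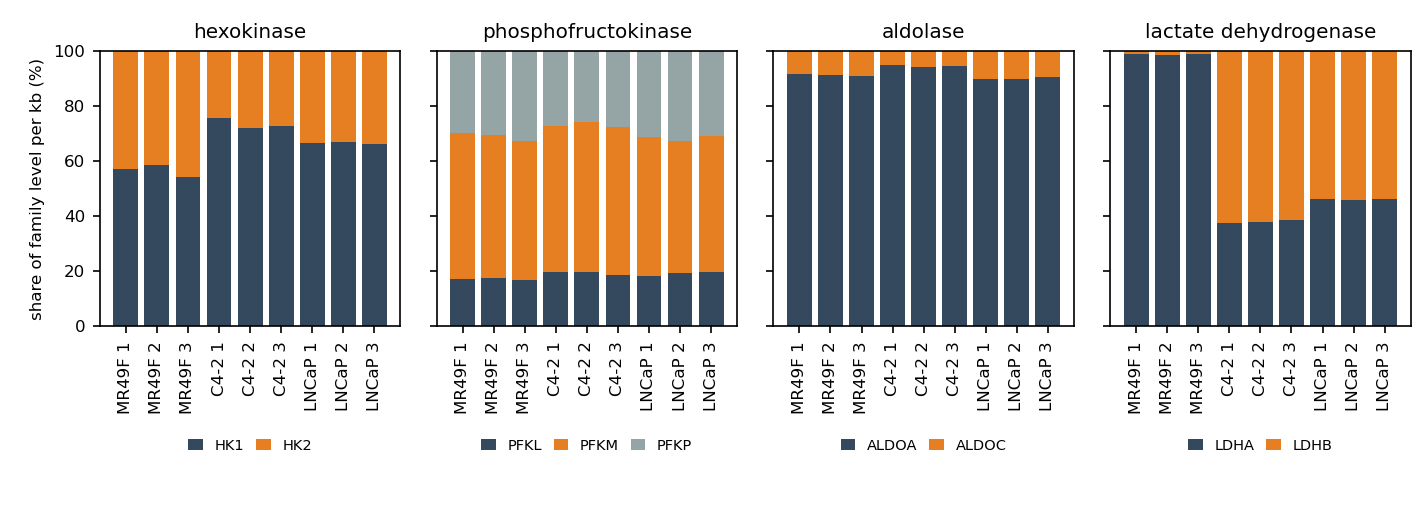
Share of each isozyme in the summed level per kb of exon union of its family, in percent, in every library. The LDHB share lies at 1.04% to 1.37% in the MR49F libraries, 61.3% to 62.5% in C4-2 and 53.8% to 54.0% in LNCaP, and the HK2 share is highest in MR49F.

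The earlier steps of glycolysis differed less. HK1, the hexokinase that is widely expressed, fell in MR49F against LNCaP (log2 fold change -0.49, adjusted p = 1.39e-05), with 132 ± 4.71 CPM in MR49F and 185 ± 3.04 CPM in LNCaP, and lay at 187 ± 4.57 CPM in C4-2. HK2, the inducible hexokinase, had 96.8 ± 6.06 CPM in MR49F, 65.0 ± 6.19 CPM in C4-2 and 89.4 ± 0.927 CPM in LNCaP. It fell in C4-2 against LNCaP (-0.47, adjusted p = 1.51e-04), was higher in MR49F than in C4-2 (0.59, adjusted p = 7.23e-06), and had a log2 fold change of 0.11 in MR49F against LNCaP (adjusted p = 0.297). The HK2 share of the HK1 and HK2 total was 43.2% ± 2.16 in MR49F, 26.5% ± 1.96 in C4-2 and 33.4% ± 0.295 in LNCaP, and the 3 lines did not overlap. Among the phosphofructokinases, which catalyse the committed step, PFKM rose in MR49F against LNCaP (0.28, adjusted p = 0.00463) and PFKP fell in C4-2 against LNCaP (-0.34, adjusted p = 0.00155). PFKL passed the test in none of the 3 comparisons, with log2 fold changes of 0.04 in MR49F against LNCaP, -0.10 in C4-2 against LNCaP and 0.14 in MR49F against C4-2. PFKM made up 52.0% ± 1.23 of the phosphofructokinase total per kb in MR49F, 53.9% ± 0.872 in C4-2 and 49.3% ± 1.25 in LNCaP, and PFKP made up 30.9% ± 1.46 in MR49F, 26.8% ± 1.05 in C4-2 and 31.6% ± 1.07 in LNCaP. The shares are given as a description, with no test.

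GPI, which converts glucose 6-phosphate to fructose 6-phosphate, fell to 448 ± 40.6 CPM in MR49F, against 602 ± 17.7 CPM in LNCaP (log2 change -0.43, adjusted p = 2.09e-04). Another gene annotated as protein-coding overlaps GPI on the same strand, so the GPI counts are uncertain. ALDOA, the main aldolase here, had 618, 638 and 548 CPM in MR49F, 1044, 845 and 805 CPM in C4-2 and 749.5, 764 and 749.5 CPM in LNCaP. Each line kept to a range of its own, with MR49F lowest and C4-2 highest. ALDOA fell in MR49F against LNCaP (-0.33, adjusted p = 0.0052) and rose in C4-2 against LNCaP (0.25, adjusted p = 0.0235), but without C4-2 replicate 1 the log2 fold change in C4-2 was 0.13 (adjusted p = 0.105), and the C4-2 call was also lost without each LNCaP library in turn (0.24 to 0.25). ALDOC, the brain-type aldolase, fell in both lines against LNCaP, to 42.8 ± 2.27 CPM in MR49F (log2 fold change -0.56) and 38.0 ± 2.92 CPM in C4-2 (-0.71), against 62.9 ± 3.52 CPM in LNCaP. It held 8.71% ± 0.348 of the aldolase total per kb in MR49F, 5.39% ± 0.381 in C4-2 and 10.03% ± 0.454 in LNCaP.

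In the later steps of the pathway, PGK1, which makes the first ATP, rose to 728, 737 and 718 CPM in MR49F, against 520, 537 and 498 CPM in LNCaP (log2 fold change 0.49, SE 0.0717, adjusted p = 1.03e-05). C4-2 had 515, 493 and 461 CPM, which overlapped with LNCaP (-0.08, adjusted p = 0.368). ATP7A and a pseudogene overlap PGK1 on the same strand, so the PGK1 counts are uncertain. PKM, pyruvate kinase, fell to 946 ± 49.5 CPM in MR49F, against 1145 ± 40.9 CPM in LNCaP (-0.28, adjusted p = 0.00729), and had 1205 ± 118 CPM in C4-2. The counts do not separate its splice forms. TPI1, GAPDH, PGAM1 and ENO1 passed the test in none of the 3 comparisons, with log2 fold changes between -0.20 and 0.14. GAPDH was the highest of the 41 genes per kb in each line, at 603 CPM per kb in MR49F, 548 in C4-2 and 586 in LNCaP, followed by ENO1. Near-identical pseudogenes can share reads with some of these genes. The 4 TPI1 pseudogenes summed to 166 CPM in MR49F, 187 CPM in C4-2 and 196 CPM in LNCaP, beside 322 CPM for TPI1 itself in MR49F, 342 CPM in C4-2 and 345 CPM in LNCaP, so the level of TPI1 is uncertain. The 65 GAPDH pseudogenes summed to 99.4 CPM in MR49F, 99.8 CPM in C4-2 and 103 CPM in LNCaP.

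Summed over the 16 enzymes, the level was 7833 ± 399 CPM in MR49F, 8630 ± 818 CPM in C4-2 and 8543 ± 245 CPM in LNCaP. Without LDHB the sums were 7829 ± 398 CPM in MR49F, 8080 ± 781 CPM in C4-2 and 8121 ± 239 CPM in LNCaP, and the libraries of the 3 lines overlapped. A sum in CPM weights long transcripts more than short ones and is a total of reads, not of enzyme.

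**Figure D3:**
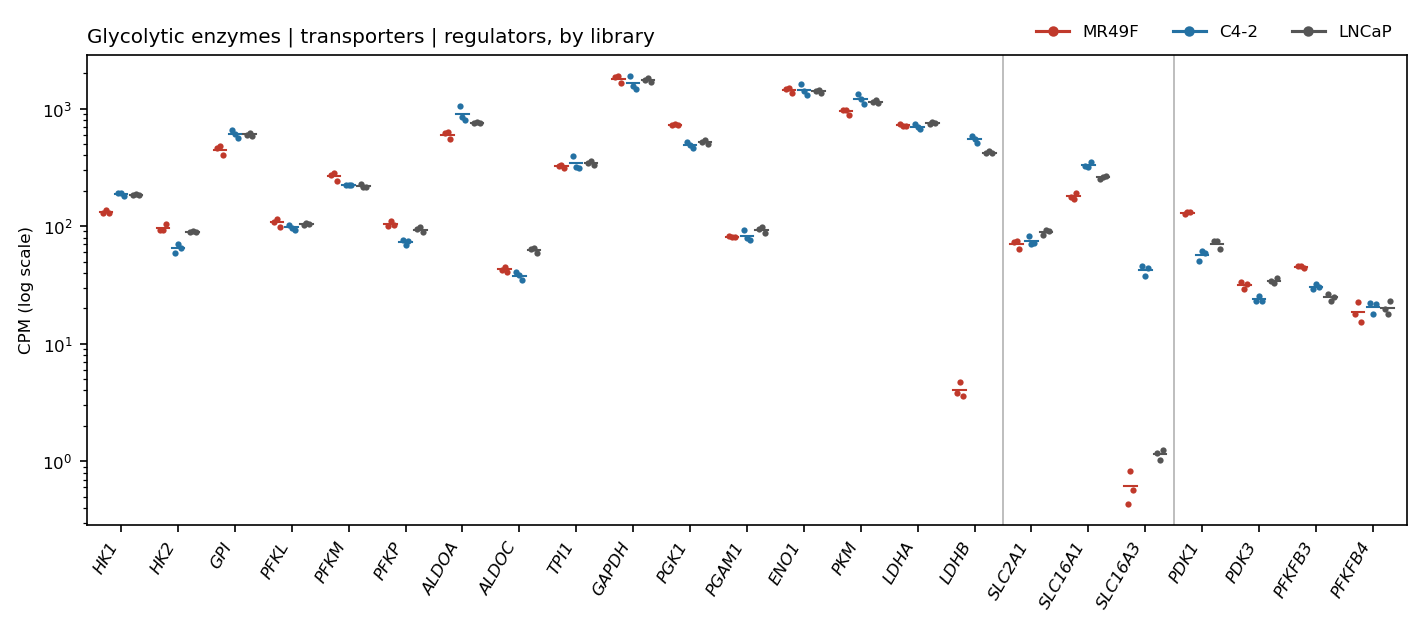
Level in CPM (log axis) of the glycolytic enzymes, the transporters and the regulators of glycolysis, per library. Points are libraries and horizontal bars are means of 3 replicates of a line. LDHB lies at 3.57 to 4.74 CPM in MR49F and above 400 CPM in both other lines, and SLC16A3 lies at 37.4 to 45.8 CPM in C4-2 and under 1.3 CPM in both other lines.

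Of the 3 transporters, SLC16A3 carried the widest difference. SLC16A3 encodes MCT4, which exports lactate from glycolytic cells and is a known hypoxia target. It had 0.437, 0.830 and 0.575 CPM in MR49F, 45.8, 37.4 and 43.8 CPM in C4-2 and 1.17, 1.02 and 1.24 CPM in LNCaP. The C4-2 libraries stood far above both other lines, and the low values rest on 4, 7 and 5 counts in MR49F and 11, 9 and 9 counts in LNCaP. The fitted level was 37.1-fold higher in C4-2 than in LNCaP (log2 fold change 5.21, SE 0.179) and 68.8-fold lower in MR49F than in C4-2 (-6.10, SE 0.199). Too few MR49F and LNCaP libraries reached the filter on low counts, and SLC16A3 passed it because of its level in C4-2, so these folds are given as a description with no p. It is among the 15 genes counted as higher in C4-2 against LNCaP and the 13 counted as lower in MR49F against C4-2. The log2 fold change in MR49F against LNCaP was -0.89 (SE 0.389) and did not pass the test (adjusted p = 0.0776). CSNK1D overlaps SLC16A3 on the opposite strand, and whether counting used strand is not given in the sources used here. CSNK1D had a log2 fold change of 0.19 in C4-2 against LNCaP and 0.00 in MR49F against C4-2.

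SLC16A1 encodes MCT1, which carries lactate and pyruvate in either direction. It had 177, 171 and 190 CPM in MR49F, 322, 318 and 352 CPM in C4-2 and 253, 259 and 267 CPM in LNCaP, with no overlap between any of the lines. SLC16A1 fell in MR49F against LNCaP (log2 fold change -0.54, SE 0.076, adjusted p = 6.56e-06) and rose in C4-2 against LNCaP (0.35, SE 0.0749, adjusted p = 6.4e-04). SLC2A1, which encodes the glucose transporter GLUT1, fell in MR49F (70.9 ± 5.95 CPM, log2 fold change -0.33, adjusted p = 0.00522) and in C4-2 (74.8 ± 6.76 CPM, -0.24, adjusted p = 0.0301) against LNCaP (89.2 ± 3.9 CPM). The C4-2 call was lost without C4-2 replicate 2, C4-2 replicate 3, LNCaP replicate 2 or LNCaP replicate 3, and when genes with low counts were kept in the fit (log2 fold changes -0.24 to -0.20).

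Among the regulators, PDK1 and PFKFB3 were highest in MR49F. PDK1 encodes pyruvate dehydrogenase kinase, which phosphorylates and inactivates pyruvate dehydrogenase. It had 126, 131 and 133 CPM in MR49F, 50.6, 62.0 and 58.8 CPM in C4-2 and 74.8, 74.3 and 64.2 CPM in LNCaP. No library of one line overlapped with another line. PDK1 was 1.82-fold higher in MR49F than in LNCaP (log2 fold change 0.87, SE 0.091, adjusted p = 1.17e-07), fell in C4-2 against LNCaP (-0.33, SE 0.0932, adjusted p = 0.00559) and was 2.30-fold higher in MR49F than in C4-2 (1.20, SE 0.0914, adjusted p = 4.99e-10). An antisense gene overlaps PDK1, whose reads could not be told apart if strand was not used. PDK3, a related kinase, fell to 23.9 ± 1.31 CPM in C4-2, against 34.4 ± 1.89 CPM in LNCaP (-0.53, adjusted p = 1.63e-04), and had 31.6 ± 2.26 CPM in MR49F.

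PFKFB3 makes fructose 2,6-bisphosphate, an activator of phosphofructokinase. It had 45.4, 45.8 and 43.8 CPM in MR49F, 29.1, 32.1 and 30.2 CPM in C4-2 and 26.4, 22.9 and 25.0 CPM in LNCaP, and the MR49F libraries lay above all others. PFKFB3 rose in MR49F against LNCaP (log2 fold change 0.86, SE 0.0967, adjusted p = 3.13e-07) and in C4-2 against LNCaP (0.29, adjusted p = 0.0187). Without LNCaP replicate 2 the value in C4-2 was 0.22 and did not pass (adjusted p = 0.12). PFKFB4, a related enzyme, lay at 18.6 ± 3.72 CPM in MR49F, 20.5 ± 2.38 CPM in C4-2 and 20.2 ± 2.65 CPM in LNCaP and passed none of the tests (adjusted p = 0.336 to 0.814).

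The transcripts of the HIF system differed by less than 2-fold between the lines. Of its 7 genes, 1 rose and 1 fell in MR49F against LNCaP (28.6%, where 47.0% of all tested genes were called). In C4-2 against LNCaP 2 rose and 2 fell (57.1%, where 49.7% of all were called). In MR49F against C4-2 3 were higher and 1 lower (57.1%, near the 61.0% of all). Over the 3 comparisons, 5 of the 10 calls were lost under at least 1 alternative. HIF1A, which encodes the oxygen-regulated alpha subunit HIF-1α, had 180, 180 and 200 CPM in MR49F, 136, 173 and 174 CPM in C4-2 and 181, 191 and 173 CPM in LNCaP. Its log2 fold change was 0.04 in MR49F against LNCaP (adjusted p = 0.753) and -0.18 in C4-2 against LNCaP (adjusted p = 0.116). The higher level in MR49F than in C4-2 (0.22, adjusted p = 0.0465) was lost under 11 of 17 alternatives and was 0.10 without C4-2 replicate 1 (adjusted p = 0.217). HIF-1α is controlled mainly at the protein level, which was not measured. EPAS1, which encodes HIF-2α, was low, at 3.19 ± 1.08 CPM in MR49F, 4.10 ± 0.168 CPM in C4-2 and 2.42 ± 0.355 CPM in LNCaP, and rose in C4-2 against LNCaP (0.77, adjusted p = 0.0104). Without LNCaP replicate 1 it did not pass (0.70, adjusted p = 0.052).

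The negative regulators of HIF moved in different directions. VHL, the recognition subunit of the ubiquitin ligase for HIF-α, fell to 91.8 ± 11.6 CPM in C4-2, against 118 ± 4.87 CPM in LNCaP (log2 change -0.37, adjusted p = 0.00227), and had 127 ± 8.68 CPM in MR49F. HIF1AN encodes an asparaginyl hydroxylase that blocks HIF transactivation. It fell in C4-2 against LNCaP (-0.23, adjusted p = 0.0457), a call lost under 10 of 17 alternatives, with a value of -0.14 without C4-2 replicate 1 (adjusted p = 0.209). Of the prolyl hydroxylases, EGLN1 passed none of the tests, at 63.1 ± 6.73 CPM in MR49F, 67.1 ± 3.83 CPM in C4-2 and 61.2 ± 1.52 CPM in LNCaP. EGLN3, itself a hypoxia target, had 14.1, 17.7 and 20.3 CPM in MR49F, 30.5, 30.5 and 29.3 CPM in C4-2 and 27.3, 28.6 and 26.1 CPM in LNCaP. The MR49F libraries lay below all others, and EGLN3 fell in MR49F against LNCaP (-0.66, SE 0.121, adjusted p = 1.38e-04).

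EGLN2, another of the prolyl hydroxylases, had 14.1, 15.3 and 12.5 CPM in MR49F, 11.4, 9.59 and 10.4 CPM in C4-2 and 7.89, 8.39 and 9.08 CPM in LNCaP. The 3 lines did not overlap, and EGLN2 rose in MR49F against LNCaP (log2 fold change 0.73, SE 0.143, adjusted p = 2.8e-04). The rise in C4-2 against LNCaP (0.35, adjusted p = 0.0484) was lost under 13 of 17 alternatives and was 0.25 without C4-2 replicate 1 (adjusted p = 0.232). The higher level in MR49F than in C4-2 (0.38, adjusted p = 0.016) was lost under 3 alternatives, among them without MR49F replicate 2 and without C4-2 replicate 2. A read-through gene, RAB4B-EGLN2, overlaps EGLN2 on the same strand, so its counts are uncertain.

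**Figure D4:**
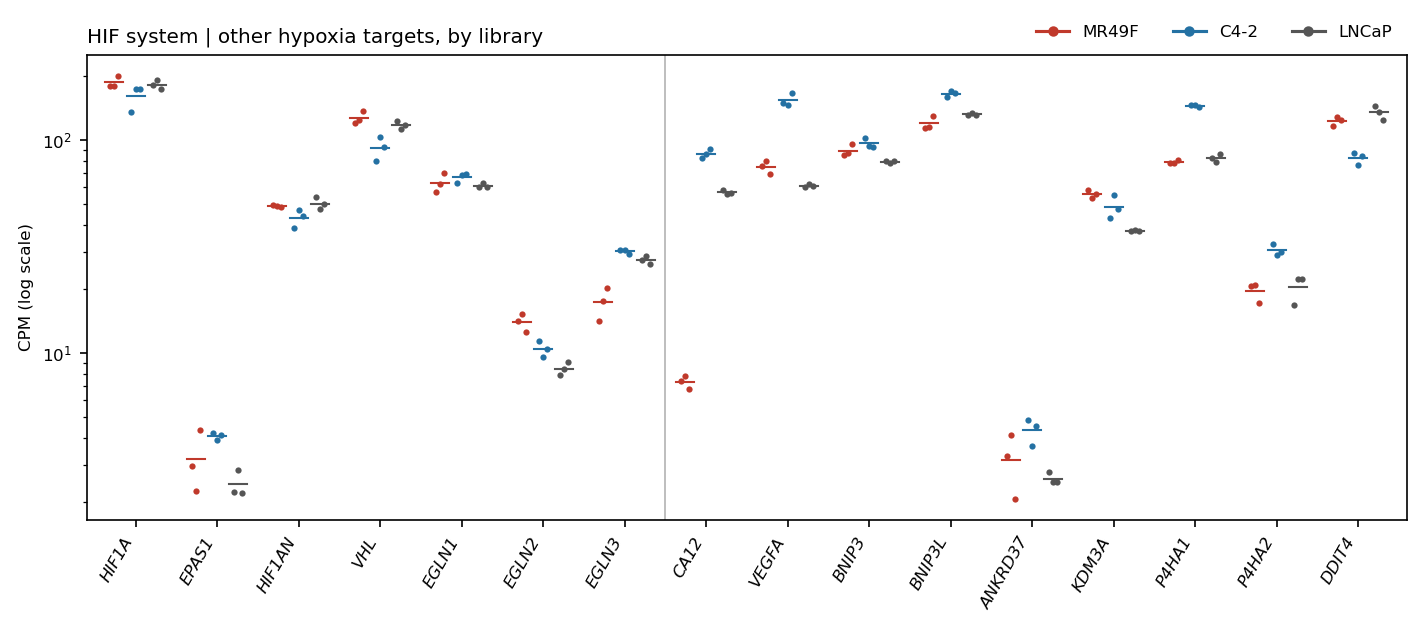
Level in CPM (log axis) of the HIF system and of the tested other hypoxia targets, per library. Points are libraries and horizontal bars are means of 3 replicates of a line. CA12 lies at 6.79 to 7.82 CPM in MR49F, 82.4 to 90.7 CPM in C4-2 and 55.5 to 58.4 CPM in LNCaP.

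The other hypoxia targets were mostly higher in C4-2. Of the 9 that were tested, 8 rose and 1 fell in C4-2 against LNCaP, with a median log2 fold change of 0.59, against 0.00 over all tested genes, of which 26.2% were called higher. Over the 17 alternatives 7 or 8 rose. In MR49F against LNCaP 2 rose and 1 fell (33.3%, where 47.0% of all tested genes were called), with a median of -0.06. Over the alternatives 1 to 3 rose and 1 to 3 fell: 1 rose without MR49F replicate 2, 3 rose without C4-2 replicate 1, 2 fell without MR49F replicate 3, and 3 fell in a fit of the 6 MR49F and LNCaP libraries alone. In MR49F against C4-2 1 was higher and 5 were lower (66.7%, near the 61.0% of all tested genes), with a median of -0.51. Over the alternatives 1 or 2 were higher and 5 or 6 lower. KDM3A gained a call as higher under voom and without C4-2 replicate 2, and ANKRD37 gained one as lower under 4 alternatives. The targets that rose in C4-2 serve different functions: VEGFA in angiogenesis, CA12 in pH control, BNIP3 and BNIP3L in mitophagy, P4HA1 and P4HA2 in collagen folding, and KDM3A in histone demethylation. The function of ANKRD37, the eighth gene that rose, is less well known.

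VEGFA encodes vascular endothelial growth factor A. It had 75.7, 79.9 and 69.0 CPM in MR49F, 150, 145 and 167 CPM in C4-2 and 60.3, 62.5 and 60.6 CPM in LNCaP. The C4-2 libraries lay above all others, and those of MR49F lay slightly above LNCaP. VEGFA was 2.52-fold higher in C4-2 than in LNCaP (log2 fold change 1.33, SE 0.0851, adjusted p = 5.2e-11) and 2.06-fold lower in MR49F than in C4-2 (-1.04, SE 0.0837, adjusted p = 1.16e-09). The rise in MR49F against LNCaP (0.29, SE 0.087, adjusted p = 0.00921) was not called without MR49F replicate 2 (0.25, adjusted p = 0.0516).

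CA12 encodes a membrane-bound carbonic anhydrase. It had 7.43, 7.82 and 6.79 CPM in MR49F, 82.4, 85.9 and 90.7 CPM in C4-2 and 58.4, 55.5 and 56.4 CPM in LNCaP. All MR49F libraries lay far below the others and all C4-2 libraries above LNCaP. CA12 was 7.73-fold lower in MR49F than in LNCaP (log2 fold change -2.95, SE 0.109, adjusted p = 7.2e-15), 1.52-fold higher in C4-2 than in LNCaP (0.60, SE 0.0833, adjusted p = 4.82e-06) and 11.7-fold lower in MR49F than in C4-2 (-3.55, SE 0.106, adjusted p = 1.25e-16). CA12 and LDHB were the only 2 of the 39 tested genes that were called and differed at least 2-fold in MR49F against LNCaP. VEGFA was so in C4-2 against LNCaP, beside SLC16A3, which entered the test because of its level in C4-2. In each of these comparisons 13.2% of all tested genes were called with such a fold. LDHB, PDK1, CA12 and VEGFA, again beside SLC16A3, were so in MR49F against C4-2, where 18.6% of all tested genes were.

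P4HA1, a subunit of collagen prolyl 4-hydroxylase, had 78.1, 78.3 and 81.0 CPM in MR49F, 146, 146 and 143 CPM in C4-2 and 82.4, 78.9 and 86.0 CPM in LNCaP. The C4-2 libraries lay apart while MR49F and LNCaP overlapped, with log2 fold changes of 0.82 in C4-2 against LNCaP (SE 0.0758, adjusted p = 1.77e-08) and -0.06 in MR49F against LNCaP (adjusted p = 0.571). P4HA2, a related subunit, rose to 30.4 ± 1.93 CPM in C4-2, against 20.5 ± 3.16 CPM in LNCaP (0.59, adjusted p = 3.88e-04), and had 19.6 ± 2.09 CPM in MR49F. BNIP3 and BNIP3L rose in C4-2 by 0.29 and 0.31 on the log2 scale, and had values of 0.17 and -0.15 in MR49F against LNCaP that did not pass (adjusted p = 0.0954 and 0.133). The 44 annotated BNIP3 pseudogenes summed to 36.4 CPM in MR49F, 41.5 CPM in C4-2 and 33.1 CPM in LNCaP, beside 89.2 CPM for BNIP3 itself in MR49F, 96.4 CPM in C4-2 and 79.2 CPM in LNCaP, which makes its level uncertain.

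KDM3A rose in both lines, to 56.0 ± 2.48 CPM in MR49F (log2 fold change 0.57, adjusted p = 6.82e-05) and 48.6 ± 6.01 CPM in C4-2 (0.35, adjusted p = 0.00534), against 37.6 ± 0.104 CPM in LNCaP. ANKRD37 was low, at 3.17 ± 1.04 CPM in MR49F, 4.36 ± 0.617 CPM in C4-2 and 2.58 ± 0.165 CPM in LNCaP. Its rise in C4-2 (0.79, adjusted p = 0.00754) was lost without C4-2 replicate 1 (0.66, adjusted p = 0.0526). DDIT4, an inhibitor of mTORC1 signalling, was the 1 target that fell, to 86.7, 76.4 and 84.0 CPM in C4-2, against 145, 135 and 125 CPM in LNCaP (-0.71, SE 0.0841, adjusted p = 6.52e-07). It had 116, 128 and 125 CPM in MR49F, which overlapped with LNCaP (-0.14, adjusted p = 0.189).

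CA9, a carbonic anhydrase widely used as a marker of hypoxia, was close to undetected. It had 2, 2 and 4 counts in MR49F, 1, 0 and 0 in C4-2 and 0 in each LNCaP library. Against a floor of 3 counts over the LNCaP group, which a count of 0 allows, the CA9 ratio of MR49F to LNCaP was 2.58. This value takes the 8 counts of MR49F as exact, so it is not a lower limit. ARHGEF39 overlaps CA9 on the opposite strand, and its reads could not be told apart if strand was not used. The ratio of pooled counts in MR49F to those in C4-2 was 17.2 (95% counting interval 2.31 to 765), and no fold is given for C4-2 against LNCaP. ADM, which encodes the vasodilator adrenomedullin, had 2 counts in MR49F, 16 in C4-2 and 6 in LNCaP over 3 libraries each. Its ratio was 0.323 in MR49F to LNCaP (0.0319 to 1.81), 1.20 in C4-2 to LNCaP (0.446 to 3.74) and 0.270 in MR49F to C4-2 (0.0301 to 1.15). These intervals cover counting error only.

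The genes that lie next to the 5 with a change of at least 2-fold were compared, taking 3 tested protein-coding genes on each side. Of all tested genes, 47.0% were called in MR49F against LNCaP, 49.7% in C4-2 against LNCaP and 61.0% in MR49F against C4-2. Around LDHB, 1 of 6 neighbours rose in MR49F against LNCaP and 0 fell, with log2 fold changes between -0.05 and 0.52. In C4-2 against LNCaP 1 rose and 3 fell (-0.48 to 0.34), and in MR49F against C4-2 4 were higher and 0 lower (-0.14 to 0.71). For CA12, 0 neighbours rose and 2 fell in MR49F against LNCaP (-0.49 to 0.12), and 1 rose and 3 fell in C4-2 against LNCaP (-0.52 to 0.47). In MR49F against C4-2 2 were higher and 2 lower (-0.51 to 0.45). VEGFA differed from these: in C4-2 against LNCaP all 6 of its neighbours rose, with log2 fold changes from 0.96 to 1.73 beside 1.33 for VEGFA itself, and in MR49F against C4-2 all 6 were lower (-1.63 to -0.37). In MR49F against LNCaP 3 of the 6 rose and 1 fell (-0.52 to 0.64). The 6 neighbours were GTPBP2, MAD2L1BP, MRPS18A, MRPL14, TMEM63B and SLC29A1, which span 141 kb before VEGFA to 433 kb after it, and were listed by position and not by response. Of the SLC16A3 neighbours 3 rose and 2 fell in C4-2 against LNCaP (-0.49 to 1.17), and 3 rose and 1 fell in MR49F against LNCaP (-1.58 to 1.32). Of the PDK1 neighbours 3 rose and 3 fell in MR49F against LNCaP (-0.82 to 2.83), and 2 rose and 1 fell in C4-2 against LNCaP (-0.43 to 2.15). In MR49F against C4-2 3 were higher and 2 lower around SLC16A3 (-2.10 to 1.73), and likewise 3 and 2 around PDK1 (-1.15 to 1.04). TEX19, beside SLC16A3, had 0.688 CPM in MR49F, 2.64 CPM in C4-2 and 1.20 CPM in LNCaP, and sets the end at 1.17. RAPGEF4, beside PDK1, had 2.66 CPM in MR49F, 1.29 CPM in C4-2 and 1.22 CPM in LNCaP, and sets the end at 1.04. Both were near the filter on low counts in the lines where they were low, so their calls and folds are description only.

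**Figure D5:**
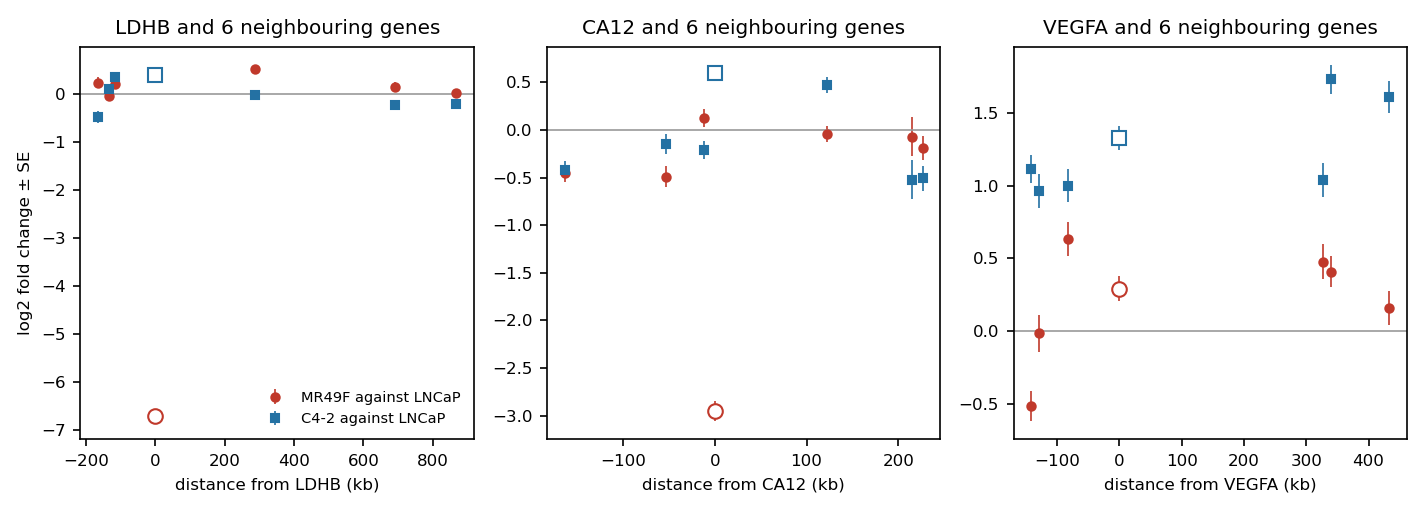
Log2 fold changes (with bars of 1 SE) of LDHB, CA12 and VEGFA (open symbols) and of the 3 tested protein-coding genes on each side of them (filled symbols), by distance in kb, in MR49F against LNCaP (circles) and C4-2 against LNCaP (squares). The vertical scale differs between panels. Around VEGFA all 6 neighbours lie between 0.96 and 1.73 in C4-2 against LNCaP, while the neighbours of LDHB lie between -0.05 and 0.52 in MR49F against LNCaP.

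Other genes of the same pathways were counted from 4 lists with 106 genes, of which 84 could be tested. In MR49F against LNCaP 25 rose and 23 fell (57.1%, where 47.0% of all tested genes were called). In C4-2 against LNCaP 27 rose and 19 fell (54.8%, against 49.7% of all). In MR49F against C4-2 26 were higher and 35 lower (72.6%, against 61.0% of all). Among 18 tested further glycolysis genes, 5 rose and 3 fell in MR49F against LNCaP (44.4%, near the 47.0% of all tested genes), and 8 rose and 4 fell in C4-2 against LNCaP (66.7%, where 49.7% of all were called). PFKFB2, a relative of PFKFB3, rose to 136 ± 5.07 CPM in MR49F, against 71.4 ± 7.24 CPM in LNCaP (log2 change 0.93, adjusted p = 8.35e-07). PGM1, which links glycogen to glucose 6-phosphate, fell to 34.8 ± 2.03 CPM in MR49F (-0.72) and 20.3 ± 1.68 CPM in C4-2 (-1.47), against 57.3 ± 2.04 CPM in LNCaP. SLC16A7, which encodes the monocarboxylate transporter MCT2, had 1.33 ± 0.229 CPM in MR49F, 18.5 ± 4.50 CPM in C4-2 and 7.85 ± 0.481 CPM in LNCaP, and rose in C4-2 against LNCaP (1.19, adjusted p = 8.13e-06).

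Of 14 tested genes for the entry of pyruvate into the mitochondria and related steps, 5 rose and 3 fell in MR49F against LNCaP (57.1%, where 47.0% of all tested genes were called), and 3 rose and 7 fell in C4-2 against LNCaP (71.4%, where 49.7% were). PDHA1, the catalytic subunit that PDK1 phosphorylates, rose to 181 ± 3.27 CPM in MR49F, against 100.1 ± 3.20 CPM in LNCaP (log2 change 0.86, adjusted p = 9.95e-09). PDK2, another of the kinases, fell to 11.4 ± 2.12 CPM in MR49F, against 23.1 ± 1.89 CPM in LNCaP (-1.02, adjusted p = 4.14e-06), so members of the kinase family moved in opposite directions. The malic enzymes ME1 and ME2, which make pyruvate from malate, had log2 fold changes of 0.95 and -0.83 in C4-2 against LNCaP, both called.

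Among 16 further genes of the HIF system, 2 rose and 8 fell in MR49F against LNCaP (62.5%, where 47.0% of all tested genes were called and 22.8% fell), and 1 rose and 3 fell in C4-2 against LNCaP (25.0%, where 49.7% were called). CITED2, which competes with HIF for the coactivators CBP and p300, rose to 61.3 ± 2.38 CPM in MR49F, against 30.1 ± 2.37 CPM in LNCaP (log2 change 1.02, adjusted p = 2.26e-08). EP300, which encodes p300, fell to 102 ± 7.05 CPM in MR49F, against 167 ± 4.12 CPM in LNCaP (-0.72, adjusted p = 1.37e-05). ARNT2, a relative of the HIF partner ARNT, fell to 4.15 ± 0.382 CPM in C4-2, against 23.4 ± 1.63 CPM in LNCaP (-2.47, adjusted p = 1.04e-11). WSB1 had the lowest adjusted p of the genes called higher in C4-2 (0.25, adjusted p = 0.0329), but 6 alternatives lost the call, among them the removal of C4-2 replicate 2 or 3 or LNCaP replicate 2 or 3, with values of 0.16 to 0.26.

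Of 36 further tested hypoxia targets, 13 rose and 9 fell in MR49F against LNCaP (61.1%, where 47.0% of all tested genes were called), with a median log2 fold change of -0.01, against 0.01 over all tested genes. In C4-2 against LNCaP 15 rose and 5 fell (55.6%, where 49.7% of all were called), with a median of 0.19, against 0.00 over all. In MR49F against C4-2 10 were higher and 19 lower (80.6%, where 61.0% of all were called), with a median of -0.33, against 0.00 over all. These counts, and those over the 84 genes, include genes that passed the filter on low counts through the lines where they were higher. BHLHE41 (3, 2 and 1 counts), PLOD2 (8, 17 and 6) and SPAG4 (14, 14 and 8) were low in LNCaP and called higher in both other lines. RORA was low in MR49F (13, 6 and 6 counts) and in LNCaP (15, 16 and 8) and called higher in C4-2 than in either. MIR210HG was low in MR49F (6, 14 and 8 counts) and called lower there against C4-2. LOXL2 (1, 4 and 9 counts) and NDUFA4L2 (6, 4 and 11) were low in MR49F and called lower there against both other lines. IGFBP3, which binds insulin-like growth factors, had 92.2 ± 2.27 CPM in MR49F, 281 ± 30.4 CPM in C4-2 and 33.4 ± 2.42 CPM in LNCaP, and rose against LNCaP in MR49F (1.46) and in C4-2 (3.08). STC2, a secreted glycoprotein, fell in MR49F (-0.82, adjusted p = 2.12e-07). RBPJ, the DNA-binding factor of the Notch pathway that is also listed among hypoxia targets, fell to 97.2 ± 13.6 CPM in C4-2, against 151 ± 4.36 CPM in LNCaP (-0.65, adjusted p = 8.17e-06), and had 154 ± 8.05 CPM in MR49F.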

How the data were processed

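The authors deposited raw whole-number counts for each Ensembl gene, 1 column per library, with no normalization. A stranded TruSeq kit was used, per the labels' protocols. TopHat2, HTSeq 0.6.1, FastQC 0.11.3, edgeR 3.12.1 and GRCh38.p12 are named, per the submitters' processing notes. Whether HTSeq counted by strand is not given in the sources used here. PFKP, PFKFB4 and HIF1A also overlap another counted gene on the same strand. Besides PDK1, SLC16A3 and CA9, other members overlap a counted gene on the opposite strand, so the same limit holds for them. They are HK1, HK2, PFKM, ALDOA, ALDOC, TPI1, GAPDH, ENO1, SLC2A1, SLC16A1, HIF1A, HIF1AN, VEGFA, BNIP3L, ANKRD37, P4HA1, P4HA2 and DDIT4. A further 3 columns matched no sample title and were not used, so the fit held 9 libraries.

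In R 4.3.3, edgeR 4.0.16 fitted 1 mean per line (TMM, filterByExpr, robust quasi-likelihood, 6 residual degrees of freedom) to all 15407 genes that passed, and p-values were Benjamini-Hochberg adjusted over them. SE is the absolute log2 fold change over the square root of F. CPM per kb uses the GENCODE 29 exon union. A total of 57388 of 57992 IDs matched GENCODE 29, and 56948 matched a gene symbol. Symbols, and not measured values, defined the 41 genes. The 5 genes with a call and an absolute log2 fold change of at least 1 in any comparison are given in every library, and in each pathway list the call with the lowest adjusted p in each direction at a mean of at least 10 CPM. Per-library values of other genes and the count of neighbouring genes are added description.

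The genes, lists and tests were chosen with earlier results of these data known. Alternatives were DESeq2 1.42.0, voom (limma 3.58.1), RLE scaling, other filters, only 6 libraries, a replicate block, thinning of the deepest library and each library left out. The edgeR fit was checked on simulated counts with known changes in 200 genes, in MR49F against LNCaP. Far fewer genes changed there than the 47.0% of 15407 called in the data, so its rates need not hold for the reported fit. In the simulation the fit recovered 64.2% of 1.5-fold, 83.6% of 2-fold and 97.0% of 4-fold changes, and called 11 unchanged genes. A gene that was not called may therefore still differ. Libraries of a line had correlations of log2 CPM of 0.987 to 0.993, and no pair agreed within counting noise (chi-square per degree of freedom 1.46 to 19.3).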

Additional observations from a re-analysis of the deposited data

Results flagged for a closer look

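For 5 genes the calls against LNCaP had opposite signs in the 2 derived lines, which also fixes the direction of the difference between MR49F and C4-2. Both comparisons with LNCaP share its libraries. The direct contrast of MR49F against C4-2 is therefore given here by its size, with no p. Its adjusted p, printed above for LDHB, CA12 and PDK1, is no further support for the opposite directions. LDHB had a log2 fold change of -7.09 in MR49F against C4-2 (SE 0.116), from -6.71 in MR49F and 0.38 in C4-2 against LNCaP. CA12 differed by -3.55 (SE 0.106), from -2.95 in MR49F and 0.60 in C4-2 against LNCaP. SLC16A1 differed by -0.88 (SE 0.0758), from -0.54 in MR49F and 0.35 in C4-2. ALDOA differed by -0.58 (SE 0.0899), from -0.33 in MR49F and 0.25 in C4-2, and its call in C4-2 against LNCaP was lost without C4-2 replicate 1. PDK1 ran the other way, at 1.20 (SE 0.0914), from 0.87 in MR49F and -0.33 in C4-2.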

How the results depend on the processing

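Over 17 alternatives, the 117 log2 fold changes (39 genes, 3 comparisons) gave 1988 values, of which 1892 kept direction and side of the threshold, 50 lost a call, 22 gained one and 24 changed sign. Of 65 calls, 55 held under all alternatives, and the 10 that did not are named in the report. The counts over the 39 genes stayed within 1.5 times of the reported ones. Every change of sign was in a value that had not been called. TPI1 in C4-2 against LNCaP was 0.0031 without a filter on low counts, and ENO1 in MR49F against C4-2 was 7.5e-04 with the replicate block. With each library left out, ranges that crossed 0 were, in MR49F against LNCaP, PFKL -0.0078 to 0.092, GAPDH -0.00032 to 0.0908, ENO1 -0.0067 to 0.059, HIF1A -0.023 to 0.070, EGLN1 -0.051 to 0.117 and P4HA2 -0.203 to 0.0148. In C4-2 against LNCaP they were GPI -0.0485 to 0.067, PFKM -0.0013 to 0.037, TPI1 -0.133 to 0.052, ENO1 -0.061 to 0.099 and PFKFB4 -0.045 to 0.139. In MR49F against C4-2 they were TPI1 -0.161 to 0.033, PGAM1 -0.0888 to 0.068, ENO1 -0.069 to 0.091 and SLC2A1 -0.146 to 9.9e-05. Among the pathway genes RBPJ ranged from -0.022 to 0.065 in MR49F against LNCaP.

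Replicate numbers did not pair the libraries: correlations of same-numbered deviations ran from -0.0832 to 0.0562. With the replicate block, 7 genes rose and 10 fell in MR49F against LNCaP. The counts were 14 higher and 8 lower in C4-2 against LNCaP, and 11 higher and 13 lower in MR49F against C4-2.

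With the longest transcript in place of the exon union, the HK2 share was 33.7% in MR49F, 19.4% in C4-2 and 25.1% in LNCaP, and the LDHB share 0.877% in MR49F, 55.2% in C4-2 and 46.9% in LNCaP. PFKM had 57.3% in MR49F, 59.4% in C4-2 and 54.7% in LNCaP, PFKP 29.03% in MR49F, 25.2% in C4-2 and 29.9% in LNCaP, and ALDOC 8.36% in MR49F. The order of the lines was as reported for HK2, PFKM, PFKP and LDHB. Genes under 1 CPM, such as SLC16A3 in MR49F, rest on few counts per library.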
